A study of Mus musculus with 6 samples.

Results

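Hearts of diabetic mice that had received an empty viral vector (T2D empty vector) were compared with hearts of control mice. The comparison rests on 2 libraries a group, 4 of the 6 libraries of the series, and on all genes with a mean value of at least 5, which were 13094 of the 54352 genes in the table. RNA was taken from whole heart tissue and sequenced after removal of ribosomal RNA. Diabetes had been induced in C57BL/6 mice aged 12 weeks by a diet with 60% of its calories from fat together with 1 injection of streptozotocin (STZ) at 75 mg/kg. STZ is a toxin of the insulin-producing beta cells. The animals were classed as having type 2 diabetes (T2D) 20 weeks into the diet, by a fasting glucose above 110 mg/dl, a raised glucose after challenge and a raised insulin in the fed state, which the labels give as 325 pmol/L against 100 pmol/L in control mice. Between 16 and 18 weeks after STZ they received an empty adeno-associated virus (AAV) through the jugular vein. Hearts were taken 4 weeks later, when 5 to 6 months had passed since induction. Control mice ate regular chow, and the labels name no vector for them. Diet, STZ and the empty vector therefore differed together between the groups and cannot be told apart. The other 2 libraries came from diabetic hearts whose vector encoded dominant negative MCUb (T2D dnMCUb), a mutated subunit of the mitochondrial calcium uniporter. They entered no test, and their values are printed beside those of a few genes.

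The adult heart draws most of its energy from fatty acids, with glucose, lactate and amino acids as further fuels. PPAR alpha, a nuclear receptor that fatty acids activate, drives genes of fatty acid uptake and oxidation and also Pdk4, whose product switches off pyruvate dehydrogenase and so closes the way from glucose into the citric acid cycle. Diabetic hearts are known for greater use of fatty acids, resistance to insulin and, later, weaker contraction and relaxation.

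All values are regularized log (rlog) values on the log2 scale as the authors deposited them, and differences are T2D empty vector minus control. The rlog transformation pulls a gene's values together, towards their mean. Over the genes called here, the rlog difference was a median 0.498 of the log2 fold in the authors' deposited table (range 0.134 to 0.704), so the differences understate the folds. The depth of the libraries is unknown, because the values used are not counts. Nothing in the labels tells if each library is a separate animal, and a p-value here measures library-to-library spread, which may be technical.

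The libraries held heart RNA by their markers. All 14 ventricular myocyte genes were present, with maxima of 12.25 to 19.47, while none of 11 genes of lung, thymus and oesophagus passed 1.37 and 4 of them were listed at 0 in all libraries. None of 9 neutrophil genes passed 4.6. Control library 1 stood apart on genes of red cells and of atrial muscle. Hbb-bs, an adult beta globin, stood at 11.98 there and at 10.96, 10.94 and 10.97 in control library 2 and the T2D empty vector libraries. Myl7, the atrial regulatory light chain, stood at 9.45 in control library 1 and at 7.32, 7.46 and 7.94 in the others. T2D empty vector library 2 stood apart on matrix genes: Col1a1, the main fibrillar collagen chain, was at 10.38 there against 9.79 in library 1, and at 9.90 and 9.86 in control. Control library 1 was also high on the immunoglobulin genes Ighm (7.93 against 7.26 to 7.32) and Igkc (5.73 against 5.07 to 5.08). It was high as well on Car3, a carbonic anhydrase of fat and muscle (6.58 against 5.76 to 5.95). Hbb-bs, Myl7 and Car3 were chosen after their values were seen.

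A gene was called where limma's Benjamini-Hochberg adjusted p over all 13094 genes was under 0.05. By that rule 30 genes were called (0.229%), 13 higher (0.0993%) and 17 lower (0.13%) in T2D empty vector. In all 30 the groups did not overlap, but that held for 42.4% of all genes tested. The differences of the called genes began at 0.20 in size and had a median size of 0.38, against a standard deviation of 0.0716 over all genes. The difference between the 2 libraries of a group had a standard deviation of 0.0758 in control and 0.0829 in T2D empty vector. The authors' deposited table listed 72 genes past the same threshold for this comparison, 36 in each direction, and held all 30. The 30 thus made up 41.7% of the authors' calls. Of the other 41 that were tested here, 22 were higher and 19 lower, and all 41 had groups that did not overlap. All 41 had an unadjusted p under 0.05, which 10.3% of all genes had. Both comparisons rest on the same libraries, so these counts are no separate evidence.

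**Figure D1:**
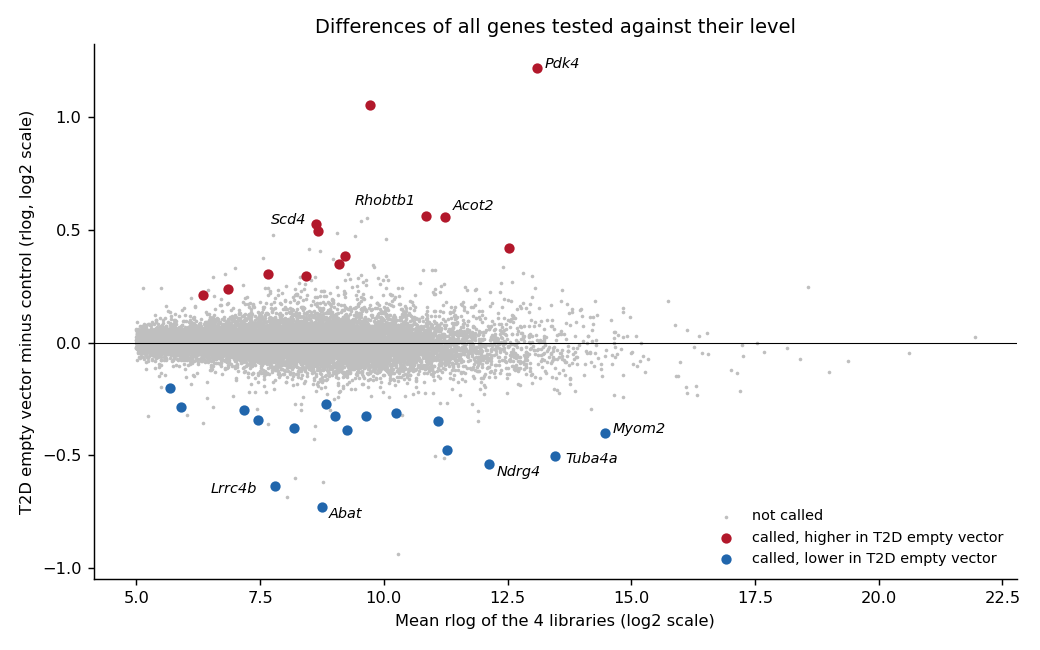
Each point is 1 of 13094 genes, with its mean rlog over the 4 libraries on the horizontal axis and the difference, T2D empty vector minus control, on the vertical axis (both log2 scale). The 30 called genes (red higher, blue lower) differ by at least 0.20 in size, some genes that were not called, such as Nppa, Scn4b and Ucp3, lie further out than many of them, and Pdk4 has the highest difference, at 1.22.

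The number of calls depended on the libraries used to estimate the spread. With all 6 libraries in 1 fit, limma called 0 genes (803 had an unadjusted p under 0.05, against 1351 in the 4-library fit), and the smallest adjusted p was 0.312. Without control library 1, 11 of the 30 stayed called, and without control library 2, 9 did. With a T2D empty vector library left out, the residual spread came from the control libraries alone, so calls kept there say little about that group. The genes that stayed called whichever library was left out numbered 7, among them Pdk4, Acot1, Acot2, Rhobtb1, Abat and Lrrc4b. No called gene could change direction in these fits, which use the same values, because the groups of all 30 did not overlap.

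Genes of fatty acid use were among those that rose in T2D empty vector hearts. Pdk4 (ENSMUSG00000019577.6, minus strand of chromosome 6, chr6:5483351-5496309, GRCm38), the kinase that inactivates pyruvate dehydrogenase, stood at 12.67 and 12.31 in control and at 13.71 in both T2D empty vector libraries. Both diabetic libraries lay above both controls, and the control libraries differed more from each other than the diabetic ones. The difference was 1.22 (SE 0.10, adjusted p = 0.00221), and the log2 fold in the authors' deposited table was 1.79. The 2 T2D dnMCUb libraries stood at 13.49 and 13.99.

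Acot2 and Acot1 encode neighbouring acyl-CoA thioesterases, of mitochondria and cytosol, which release free fatty acids from their coenzyme A esters. Acot2 (ENSMUSG00000021226.7, plus strand, chr12:83987861-83993873) stood at 10.99 and 10.93 in control and at 11.53 and 11.51 in T2D empty vector, a rise of 0.56 (SE 0.04, adjusted p = 0.00221). Acot1 (plus strand, chr12:84009490-84018371) stood at 8.47 and 8.25 against 8.85 and 8.92, a rise of 0.53 (SE 0.07, adjusted p = 0.0297). The groups were apart for both. Their sequences are closely alike, and how reads shared between them were counted is not given in the sources used here. Pex11a, a factor for the growth and division of peroxisomes, rose by 0.30 from 8.30 and 8.24 to 8.59 and 8.54 (adjusted p = 0.0444). Its call was lost without control library 1 (adjusted p = 0.16) and without control library 2 (0.241).

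Of 30 listed targets of PPAR alpha 27 reached the minimum level, and all 27 were higher in T2D empty vector, with a median difference of 0.14, beside 48.2% of all genes that were higher (51.8% were lower) and a median of -0.0025. Of the 27, 5 were called (0.0993% of all genes in this direction). An unadjusted p under 0.05 was found for 17 (5.14% of all genes in this direction), and 20 had groups apart (19.9% of all genes). The 22 that were not called had differences of 0.03 to 0.55. Ucp3, a mitochondrial uncoupling protein, lay at 0.55 with control libraries at 9.57 and 9.19 and diabetic libraries at 9.94 and 9.92 (adjusted p = 0.115). Fabp3, the fatty acid binding protein of the myocyte cytosol, differed by 0.19 (13.50 and 13.48 against 13.69 and 13.66). Angptl4, a secreted inhibitor of lipoprotein lipase, differed by 0.09 with overlapping groups. The receptor gene Ppara itself was at 9.61 and 9.67 against 9.63 and 9.54, and its coactivator Ppargc1a at 10.26 and 10.20 against 10.26 and 10.22, both with overlapping groups. The list, like all lists used here, was drawn up with earlier results of these data known.

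The wider list of fatty acid uptake and oxidation shares 17 tested genes with the PPAR alpha list and is no separate line of evidence. Of its 38 genes 31 were higher, with a median of 0.11. Acot1 and Acot2 were called. Counting these, 15 had an unadjusted p under 0.05 in the higher direction against 1 in the lower (5.14% and 5.18% of all genes). Cd36, the fatty acid translocase of the cell surface, stood at 15.68 and 15.63 against 15.90 and 15.78 (0.18, adjusted p = 0.402). The carnitine palmitoyltransferases, which pass acyl groups into mitochondria, differed by 0.18 (Cpt1a, adjusted p = 0.402) and 0.14 (Cpt1b, adjusted p = 0.405), with the groups apart for both. Decr1, the reductase needed to oxidise unsaturated fatty acids, differed by 0.24 (13.54 and 13.40 against 13.74 and 13.68, adjusted p = 0.276). Decr1 was called in the authors' deposited table. With 1 library left out the median of this list ran from 0.06 (without control library 2, with 25 genes higher and 13 lower) to 0.16, and that of the PPAR alpha list from 0.10 to 0.19.

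Lipid synthesis and storage genes split. Scd4, the stearoyl-CoA desaturase typical of heart, rose by 0.50 (SE 0.06, adjusted p = 0.0219), from 8.49 and 8.35 to 8.86 and 8.98. Gpam, which starts glycerolipid synthesis at the outer mitochondrial membrane, rose by 0.42 (SE 0.06, adjusted p = 0.0397), from 12.34 and 12.30 to 12.81 and 12.67. G0s2, an inhibitor of the triglyceride lipase ATGL, fell by 0.32 (SE 0.05, adjusted p = 0.0444), from 9.85 and 9.75 to 9.50 and 9.45. The groups were apart for all 3. In the T2D dnMCUb libraries G0s2 stood at 9.72 and 9.82, Scd4 at 8.93 and 9.26 and Gpam at 12.47 and 12.69. Without control library 2 the adjusted p was 0.0621 for Scd4, and without control library 1 and 2 in turn it was 0.171 and 0.19 for Gpam and 0.245 and 0.0574 for G0s2.

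Of 34 genes of the lipid synthesis and droplet list, 14 were higher and 20 lower, with a median of -0.02, which became 0.01 without control library 1 and -0.0079 without T2D empty vector library 2. Beside the called genes, Me1, the malic enzyme that supplies NADPH, lay at 9.96 and 9.90 against 10.19 and 10.16 (0.24, adjusted p = 0.0928), and Lipe, hormone-sensitive lipase, at 9.56 and 9.47 against 9.77 and 9.76 (0.25, adjusted p = 0.107). Both had groups that did not overlap and neither was called by limma, while Me1 was called in the authors' deposited table. Lpin1, a phosphatidate phosphatase that also acts with PPAR alpha in the nucleus, differed by -0.23 (adjusted p = 0.162) and was among the authors' calls in the authors' deposited table. The authors' deposited table also called Ephx2 (rlog difference 0.31), an epoxide hydrolase, Cat (0.26), the peroxisomal catalase, and Abca1 (0.32), a cholesterol exporter, none of which was called by limma.

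On the insulin side, Irs1, the adaptor that carries the signal from the insulin receptor to PI3 kinase, fell. Irs1 (minus strand, chr1:82233101-82291416) stood at 10.41 and 10.39 in control and at 10.06 and 10.12 in T2D empty vector, with the groups apart and a difference of -0.31 (SE 0.04, adjusted p = 0.0397). The adjusted p was 0.212 without control library 1 and 0.126 without control library 2. The second adaptor gene, Irs2, stood at 8.25 and 8.19 against 8.74 and 8.16, so that 1 diabetic library was high and the groups overlapped. Of 31 genes of insulin signalling, 21 were higher and 10 lower, with a median of 0.03, and Irs1 was the only call. Without T2D empty vector library 1 the median was 0.0004. Akt1, a kinase downstream of PI3 kinase, was at -0.17 (adjusted p = 0.296).

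Genes of glucose use lay mostly lower, and none was called. Of 29 genes of glucose uptake and glycolysis, 24 were lower with a median of -0.06, 9 had an unadjusted p under 0.05 in that direction (5.18% of all genes did) and 17 had groups apart (22.5% of all genes). Leaving out T2D empty vector library 1 brought the median to -0.10. Eno3, muscle enolase, stood at 14.38 and 14.30 against 14.07 and 14.01 (-0.30, adjusted p = 0.117). Hk1, hexokinase 1, stood at 11.40 and 11.41 against 11.06 and 11.21 (-0.27, adjusted p = 0.166). Both were called in the authors' deposited table. The glucose transporters lay on the same side, Slc2a1, the basal one, at -0.17 (adjusted p = 0.233) and Slc2a4, the insulin-responsive one, at -0.18 (adjusted p = 0.312). Pfkfb3, which makes the activator of phosphofructokinase, was at 0.14.

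In pyruvate dehydrogenase and the citric acid cycle, Pdk4 was the only call, and 28 of 33 genes were lower with a median of -0.06. That median was -0.02 without control library 1 or without T2D empty vector library 2, -0.09 without control library 2 or without T2D empty vector library 1, and -0.03 with quantile normalization. Pcx, pyruvate carboxylase, differed by -0.19 (adjusted p = 0.283), and Pdk2, another kinase of the complex, by -0.11 (adjusted p = 0.407). Abat (ENSMUSG00000057880.12, plus strand, chr16:8513429-8621568), the GABA transaminase that feeds the GABA shunt, fell by 0.73 (SE 0.05, adjusted p = 0.00169). It stood at 9.08 and 9.14 in control and at 8.44 and 8.32 in T2D empty vector, and the log2 fold in the authors' deposited table was -1.47. Aldh5a1, which takes the next step of the shunt, was at 9.82 and 9.89 against 9.69 and 9.72 (-0.15, adjusted p = 0.328). Glul, glutamine synthetase, lay at 12.50 and 12.42 against 12.88 and 12.58 (0.27, adjusted p = 0.383). Among genes that break down branched chain amino acids, Bckdhb, a subunit of the branched chain keto acid dehydrogenase, and Acadsb, a short branched chain acyl-CoA dehydrogenase, each differed by -0.19, with adjusted p of 0.321 and 0.312. Oxct1, which activates acetoacetate for oxidation, differed by -0.23 (adjusted p = 0.231) and was called in the authors' deposited table.

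**Figure D2:**
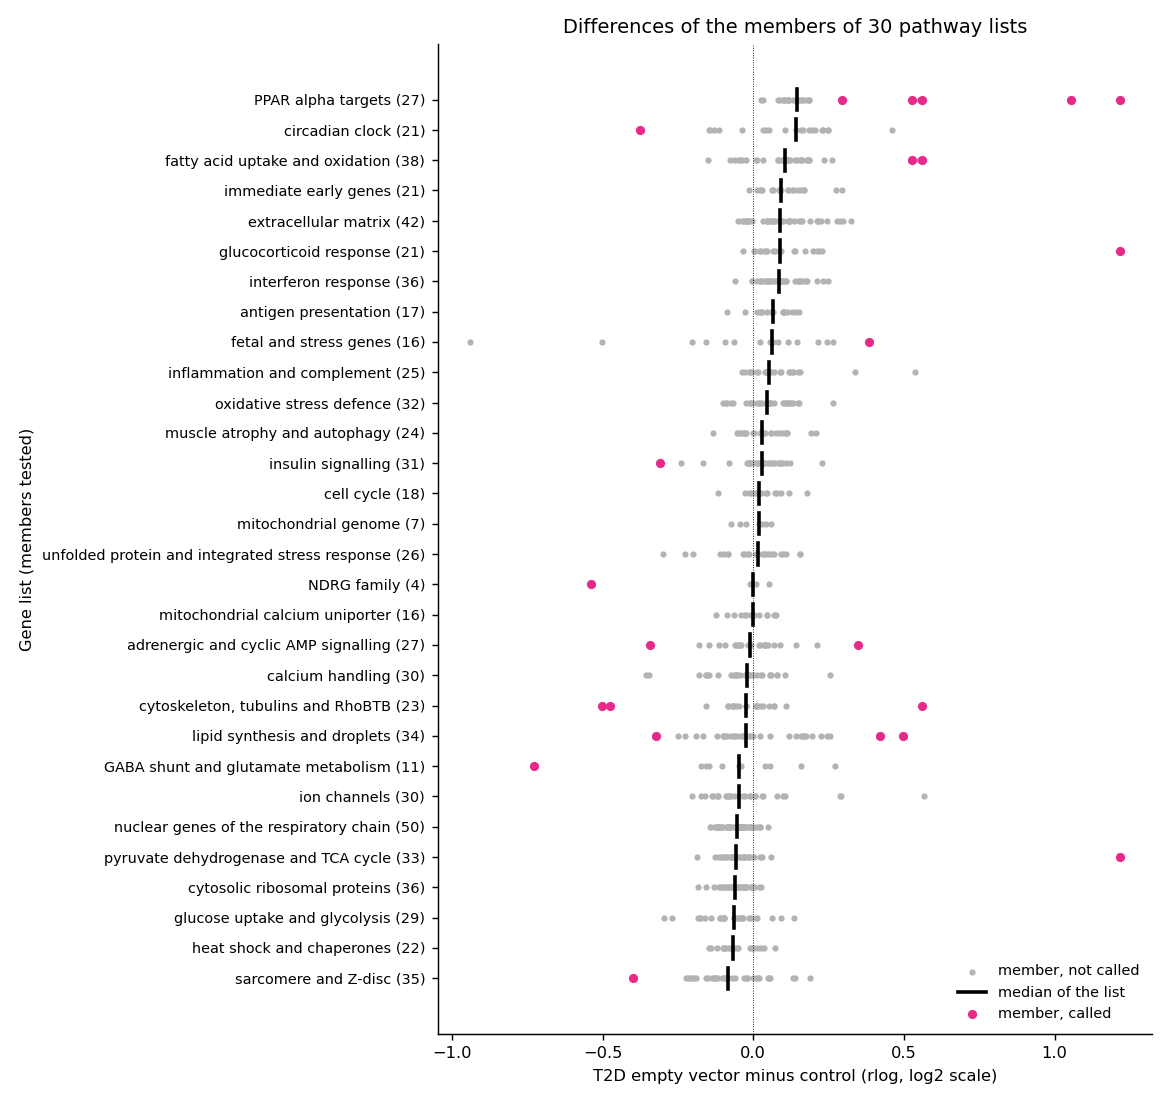
Each grey point is a tested member of 1 of 30 pathway lists and each pink point a called member, by its difference (T2D empty vector minus control, rlog on the log2 scale). Black bars are list medians, which run from -0.08 for sarcomere and Z-disc genes to 0.14 for PPAR alpha targets and clock genes.

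Among genes of the contractile apparatus, Myom2 fell. Myom2, an M-band protein that links myosin filaments (plus strand, chr8:15057653-15133541), stood at 14.68 and 14.64 in control and at 14.27 and 14.26 in T2D empty vector (difference -0.40, SE 0.05, adjusted p = 0.0286). The adjusted p was 0.215 without control library 1 and 0.12 without control library 2. The T2D dnMCUb libraries stood at 14.15 and 14.78, so that 1 of them lay above the controls. Of 35 sarcomere and Z-disc genes, 25 were lower with a median of -0.08, 21 of them with groups apart (22.5% of all genes were apart in this direction). Tnnc1, cardiac troponin C, was at -0.21 (adjusted p = 0.27) and Mybpc3, myosin binding protein C, at -0.22 (adjusted p = 0.327), while Tcap, the titin cap, was at 0.19 (adjusted p = 0.312). The authors' deposited table called Tnnc1 and Mybpc3 and not Tcap. Myh6, the main myosin heavy chain of the adult mouse heart, was at 19.12 and 19.00 against 18.90 and 18.96 (adjusted p = 0.609), and Myh7, its fetal form, was at 12.09 and 12.02 against 11.46 and 12.25, with overlapping groups.

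Markers of ventricular myocytes moved with these genes: 13 of 14 were lower, with a median of -0.14, and their summed level was 21.13 and 21.06 in control and 20.98 in both T2D empty vector libraries (log2 scale). The lists share 9 genes, and the part of the markers in the result was not tested. In whole tissue, fewer cells of a type and less RNA per cell cannot be told apart. With quantile normalization, which gives all 4 libraries the same distribution, the median became -0.01 for the sarcomere list and -0.04 for the ventricular markers. Ckm, muscle creatine kinase, at -0.24, and Slc25a4, the ADP/ATP carrier of heart mitochondria, at -0.23, were called only in the authors' deposited table.

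Of 23 genes of the list of cytoskeleton, tubulins and RhoBTB, 3 were called, 1 higher and 2 lower (0.0993% and 0.13% of all genes). The list, which names these families, was drawn up with earlier results of these data known. Rhobtb1 (ENSMUSG00000019944.14, plus strand, chr10:69212634-69291791), which encodes an atypical GTPase that binds the ubiquitin ligase scaffold cullin 3, stood at 10.61 and 10.55 in control and at 11.15 and 11.13 in T2D empty vector. The rise was 0.56 (SE 0.04, adjusted p = 0.00221). A gene that overlaps it on the opposite strand was tested and not called. Tuba4a and Tuba8, which encode alpha tubulins of the microtubules, fell by 0.50 (adjusted p = 0.0152) and 0.48 (adjusted p = 0.0421). Tuba4a stood at 13.72 and 13.71 against 13.27 and 13.16, and Tuba8 at 11.41 and 11.62 against 11.06 and 11.02, with the groups apart in both. Stk16, which overlaps Tuba4a on the opposite strand, was at 0.09. Tubulin genes share sequence, and the counting of shared reads is not given in the sources used here. Tubb4b, a beta tubulin, was at -0.16 (adjusted p = 0.442). Without control library 1 the adjusted p of Tuba4a was 0.0894, and without control library 2 it was 0.0539 for Tuba4a and 0.0691 for Tuba8.

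Ndrg4, a member of the NDRG family that is enriched in heart and brain, fell by 0.54 (SE 0.06, adjusted p = 0.0219), from 12.36 and 12.45 to 11.95 and 11.78. Of the other family members, Ndrg1 was at 0.05 (SE 0.04), Ndrg2 at -0.01 (SE 0.05) and Ndrg3 at 0.01 (SE 0.04). The call of Ndrg4 was lost without control library 1 (adjusted p = 0.0652) and without control library 2 (0.0811).

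Natriuretic peptides, which stretched myocytes secrete and which serve as markers of cardiac load, lay lower in T2D empty vector without passing the test. Of 16 fetal and stress genes, 10 were higher and 6 lower, with a median of 0.06. It moved to 0.13 when T2D empty vector library 1 was left out and to -0.03, with 8 genes on each side, when library 2 was. Nppa stood at 10.52 and 11.01 in control and at 10.01 and 9.63 in T2D empty vector, a difference of -0.94 (SE 0.16, adjusted p = 0.0842). Nppb stood at 11.06 and 11.53 against 10.87 and 10.71 (-0.50, SE 0.13, adjusted p = 0.272). The groups were apart for both genes, and both control and diabetic libraries were widely spread. Nppa is also an atrial marker. Control library 1, which was high on Myl7, was the lower of the control libraries on Nppa. Nppa, Nppb and Myl7 were among the 9 genes that differed by at least 0.5 without being called, with Scn4b, C4b, Ucp3, Hbb-bs, Gm10800 and Myl4, some of which were named for this size after their values were seen. Of the 9, Myl7, Myl4, Hbb-bs and Gm10800 had overlapping groups, with control library 1 high in each.

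Genes of second messenger signalling changed in both directions. Adcy1, a calcium-stimulated adenylyl cyclase, fell by 0.34 (adjusted p = 0.0286), from 7.60 and 7.65 to 7.32 and 7.24. Grk5, a kinase that desensitises beta adrenergic receptors, rose by 0.35 (adjusted p = 0.0444), from 8.94 and 8.90 to 9.20 and 9.33. The phosphodiesterase genes went opposite ways. Pde1c, whose calcium-activated product splits cyclic AMP and cyclic GMP, fell by 0.39 (adjusted p = 0.0286), from 9.49 and 9.39 to 9.02 and 9.09. Pde11a, which splits both nucleotides as well, rose by 0.24 (adjusted p = 0.0421), from 6.74 in both control libraries to 6.96 and 6.99. The groups were apart in all 4. Without control library 1 the adjusted p was 0.106 for Adcy1, 0.19 for Grk5, 0.171 for Pde1c and 0.232 for Pde11a, and without control library 2 it was 0.126 for Adcy1, 0.227 for Grk5, 0.0324 for Pde1c and 0.202 for Pde11a.

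Of 27 genes of adrenergic and cyclic AMP signalling, 12 were higher and 15 lower, with a median of -0.01, which ran from -0.03 without control library 1 to 0.0047 without control library 2. Adra1a, the alpha 1A adrenergic receptor, was at 9.38 and 9.26 against 9.55 and 9.52 (0.21, adjusted p = 0.218). Prkar1a, a regulatory subunit of protein kinase A, was at -0.18 (adjusted p = 0.277). Gnb3, a G protein beta subunit that lies just outside the threshold, stood at 6.51 and 6.59 against 6.34 and 6.28 (-0.24, adjusted p = 0.0683). Gnb3 was called in the authors' deposited table.

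No gene of calcium handling or of the ion channel list was called. Of 30 calcium handling genes, 6 had an unadjusted p under 0.05, all lower (5.18% of all genes did so in this direction). Rrad, a small GTPase that restrains calcium channels, was at 12.07 and 12.08 against 11.59 and 11.87 (-0.35, adjusted p = 0.227). Hrc, the histidine-rich calcium binding protein of the sarcoplasmic reticulum, was at -0.18 and Camk2d, the main cardiac calmodulin kinase, at -0.16. Atp2a2, the calcium pump of the sarcoplasmic reticulum, stood at 17.57 and 17.51 against 17.56 and 17.52, its inhibitor Pln at 17.34 and 17.23 against 17.27 and 17.18, and the release channel gene Ryr2 at 15.85 and 15.83 against 15.91 and 15.94. Of 30 ion channel genes, 3 had an unadjusted p under 0.05 in the higher and 7 in the lower direction (5.14% and 5.18% of all genes). Scn4b, a beta subunit of sodium channels, stood at 10.54 and 10.64 against 11.32 and 10.99, a difference of 0.57 (SE 0.09, adjusted p = 0.0789). Scn4a, the skeletal muscle sodium channel, stood at 9.77 and 9.69 against 10.07 and 9.97 (0.29, adjusted p = 0.0897). The authors' deposited table called Scn4a and not Scn4b. Kcnip2, which forms the transient outward potassium channel with its pore subunits, was at -0.16 (adjusted p = 0.273).

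In the circadian clock, Arntl fell. The clock is a loop in which ARNTL (BMAL1) and CLOCK drive the period genes, the REV-ERB repressors and output factors such as DBP through E-boxes, and REV-ERB and ROR proteins act back on Arntl. Arntl (ENSMUSG00000055116.8, plus strand, chr7:113207465-113314126) fell by 0.38 (SE 0.04, adjusted p = 0.0201), from 8.40 and 8.35 to 7.97 and 8.03. Dbp, which lay just outside the threshold, was at 9.70 and 9.93 against 10.32 and 10.23 (0.46, SE 0.07, adjusted p = 0.0576). Dbp was called in the authors' deposited table. Every diabetic library lay below the controls on Arntl and above them on Dbp. Without control library 1 the adjusted p of Arntl was 0.122.

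Of 21 clock genes, 15 were higher and 6 lower, with a median of 0.14, and 11 and 4 of them had an unadjusted p under 0.05 in those directions (5.14% and 5.18% of all genes). Without either T2D empty vector library the median was 0.09. Nr1d2, which encodes REV-ERB beta, stood at 11.52 and 11.53 against 11.81 and 11.74 (0.25, adjusted p = 0.115) and was called in the authors' deposited table. Bhlhe41, a repressor of the loop, was at 8.55 and 8.67 against 8.82 and 8.81 (0.21, adjusted p = 0.214). Per1, a period gene, was at 8.62 and 8.61 against 8.94 and 8.74 (0.23, adjusted p = 0.295). Nr1d1, which encodes REV-ERB alpha, was at 9.52 and 9.61 against 9.55 and 9.79, with overlapping groups. The labels give no time of day for the collection of the hearts.

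Promoter sequences of clock genes are shown because the loop acts through short elements in them. RefSeq windows (GRCm38.p6) from 250 bases before to 50 after the gene start were at hand for 18 of the 21 clock genes and for 9304 of all 13094 genes. They were searched on both strands for the E-box CACGTG and for the ROR element, taken as TAGGTCA or TGGGTCA. The E-box was found in 5 of the 18 clock genes (27.8%), in 4 of 13 called lower genes (30.8%), in 2 of 11 called higher genes (18.2%) and in 11.9% of all. The ROR element was found in 2 of 18 clock genes (11.1%), in 5 of 22 PPAR alpha targets (22.7%) and in 6.06% of all. A core of the PPAR repeat, GGTCAAAGG, was searched too. That core was found in 0 of 22 PPAR alpha targets, in 0 of 30 fatty acid genes and in 0.322% of all. A match describes these letters and is not a bound site. Capitals mark the ROR element in Arntl (window chr7:113207261-113207560, plus strand), with its first base at position 31 from the gene start. They mark the E-box in Per1 (chr11:69098699-69098998, plus strand) at position -166 and in Bhlhe41 (chr6:145865371-145865670, minus strand) at position -153. CACGTG reads the same on both strands.
Arntl: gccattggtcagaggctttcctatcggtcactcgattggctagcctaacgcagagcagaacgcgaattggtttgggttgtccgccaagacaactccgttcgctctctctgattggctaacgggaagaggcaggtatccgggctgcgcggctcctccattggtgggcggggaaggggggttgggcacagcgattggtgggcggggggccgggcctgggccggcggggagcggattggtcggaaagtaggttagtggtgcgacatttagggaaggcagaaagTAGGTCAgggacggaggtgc
Per1: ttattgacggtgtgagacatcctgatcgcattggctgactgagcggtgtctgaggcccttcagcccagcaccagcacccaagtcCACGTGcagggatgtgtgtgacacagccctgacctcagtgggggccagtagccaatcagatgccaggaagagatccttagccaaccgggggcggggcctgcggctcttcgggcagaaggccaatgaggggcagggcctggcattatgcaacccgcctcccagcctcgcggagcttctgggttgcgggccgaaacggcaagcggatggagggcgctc
Bhlhe41: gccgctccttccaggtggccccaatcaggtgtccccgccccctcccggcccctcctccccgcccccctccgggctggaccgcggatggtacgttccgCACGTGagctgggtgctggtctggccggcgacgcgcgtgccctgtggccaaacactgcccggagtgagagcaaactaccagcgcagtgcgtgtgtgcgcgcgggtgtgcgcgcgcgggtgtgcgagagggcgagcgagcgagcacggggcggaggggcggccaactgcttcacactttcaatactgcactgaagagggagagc

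Glucocorticoid targets overlap with both the clock and the PPAR alpha lists, with Pdk4 and Per1 among them. Of 21 tested, 20 were higher with a median of 0.09, 1 was called (Pdk4), 8 had an unadjusted p under 0.05 and 11 had groups apart, all in the higher direction, in which 0.0993%, 5.14% and 19.9% of all genes did so. The list's median moved to 0.06 when T2D empty vector library 1 was left out and to 0.15 when library 2 was. Fkbp5, a chaperone partner that restrains the glucocorticoid receptor, stood at 8.06 and 8.14 against 8.38 and 8.25 (0.21, adjusted p = 0.266). Zbtb16, a transcription factor, stood at 9.47 and 9.49 against 9.76 and 9.64 (0.22, adjusted p = 0.205), and Map3k6, a stress kinase, at 7.69 and 7.72 against 7.93 and 7.88 (0.20, adjusted p = 0.148). Tsc22d3, which encodes the leucine zipper protein GILZ, was at 10.99 and 10.95 against 11.18 and 11.04. In each of these 4 genes both diabetic libraries lay above both controls, with T2D empty vector library 1 the higher.

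Interferon response genes lay higher by small amounts, and none passed the test over all genes. Of 36 tested, 33 were higher with a median of 0.08, 27 had groups apart (19.9% of all genes) and 16 had an unadjusted p under 0.05 (5.14% of all genes), all in the higher direction. Rsad2, the antiviral enzyme viperin, stood at 8.88 and 8.96 against 9.16 and 9.18 (0.25, SE 0.04, adjusted p = 0.0928). Ifit1, which binds foreign RNA, stood at 7.61 and 7.57 against 7.77 and 7.87 (0.23, adjusted p = 0.147), and its relative Ifit3 at 7.56 and 7.55 against 7.70 and 7.84 (0.21, adjusted p = 0.222). Irf7, the transcription factor that amplifies the response, stood at 7.77 and 7.69 against 7.88 and 7.89 (0.15, adjusted p = 0.304). The T2D dnMCUb libraries stood at 8.29 and 8.46 on Irf7. The list median was 0.07 to 0.09 whichever library was left out. Diabetes and the viral vector cannot be told apart in these differences.

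The interferon element is shown for 3 of these genes. Its core, GAAANNGAA, was searched on both strands, where the other strand reads TTCNNTTTC. It was found in 18 of 25 interferon response genes with a window (72%) and in 8.73% of all. All matches marked here read TTCNNTTTC. Rsad2 (chr12:26456403-26456702, minus strand) has 1 match, at position -119. Ifit1 (chr19:34640639-34640938, plus strand) has 3, at positions -109, -103 and -84, of which the matches at -109 and -103 overlap. Ifit3 (chr19:34583279-34583578, plus strand) has 3, at positions -155, -121 and -102.
Rsad2: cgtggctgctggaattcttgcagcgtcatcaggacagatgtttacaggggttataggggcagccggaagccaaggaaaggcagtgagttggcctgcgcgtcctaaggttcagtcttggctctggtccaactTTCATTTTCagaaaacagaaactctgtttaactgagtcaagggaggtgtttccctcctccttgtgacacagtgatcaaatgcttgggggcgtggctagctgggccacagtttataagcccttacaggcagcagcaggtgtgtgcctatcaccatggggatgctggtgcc
Ifit1: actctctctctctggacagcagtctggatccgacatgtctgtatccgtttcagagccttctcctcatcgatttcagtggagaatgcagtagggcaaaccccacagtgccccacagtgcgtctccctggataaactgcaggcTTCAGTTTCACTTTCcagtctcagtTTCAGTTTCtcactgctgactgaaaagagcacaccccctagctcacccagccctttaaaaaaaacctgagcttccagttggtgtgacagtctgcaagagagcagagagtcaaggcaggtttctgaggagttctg
Ifit3: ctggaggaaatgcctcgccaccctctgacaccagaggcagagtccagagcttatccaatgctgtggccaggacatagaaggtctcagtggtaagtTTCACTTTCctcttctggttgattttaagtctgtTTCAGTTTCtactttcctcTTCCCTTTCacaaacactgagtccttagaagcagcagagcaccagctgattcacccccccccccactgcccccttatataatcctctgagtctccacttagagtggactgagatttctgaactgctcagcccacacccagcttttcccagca

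**Figure D3:**
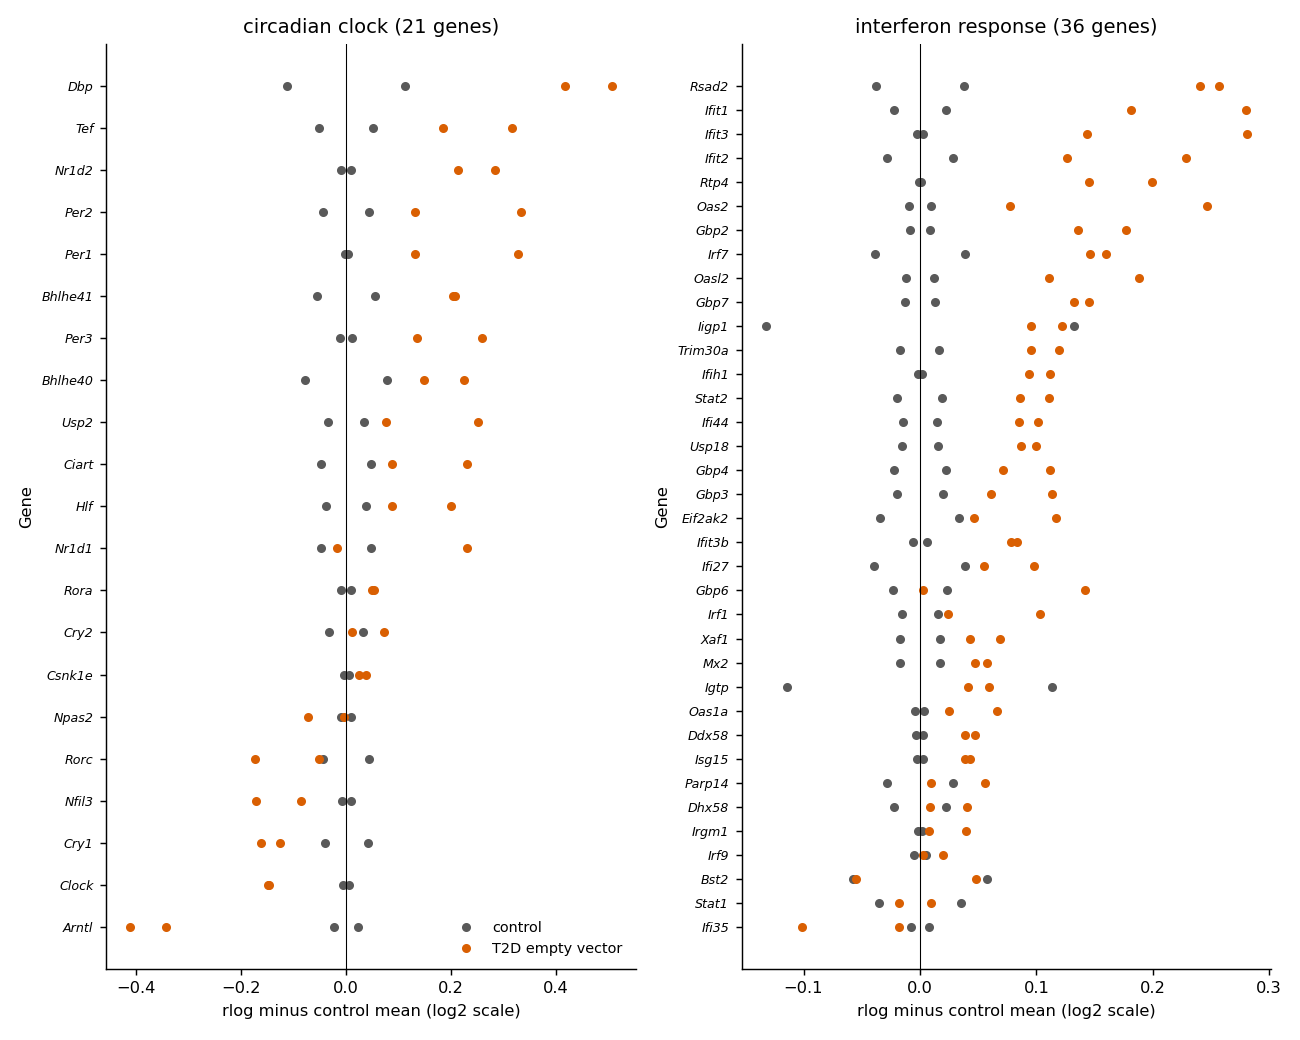
Each point is 1 library's rlog minus the gene's control mean (log2 scale), for the 21 clock genes (left) and the 36 interferon response genes (right), with control in grey and T2D empty vector in orange. Arntl lies lowest and Dbp highest among clock genes, and on the right most orange points lie above the control mean of their gene.

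Of the other immune genes 1 was called, and the lists lay on both sides of 0. Ccr2, the chemokine receptor of monocytes recruited from blood, rose by 0.30 (SE 0.04, adjusted p = 0.0397), from 7.54 and 7.50 to 7.86 and 7.79. Its adjusted p was 0.171 without control library 1 and 0.19 without control library 2. Of 16 macrophage markers, Ccr2 included, 13 were higher and 3 lower with a median of 0.03, and Adgre1, which encodes a surface receptor of macrophages, was at 0.11 (adjusted p = 0.447). Without T2D empty vector library 1, 7 of the 16 were higher and the median was -0.0087. It was 0.06 without T2D empty vector library 2 or without control library 1, and 0.02 without control library 2. The summed level of the 16 markers was 13.38 and 13.36 in control and 13.45 and 13.37 in T2D empty vector. C4b, a complement component, stood at 9.45 and 9.11 against 9.78 and 9.85 (0.54, SE 0.09, adjusted p = 0.0919), and C3, the central complement component, at 12.34 and 12.14 against 12.72 and 12.43 (0.34, adjusted p = 0.321). Of 25 inflammation and complement genes 20 were higher and 5 lower, with a median of 0.05. The lymphocyte genes that were tested lay lower, Ighm at -0.29 and Igkc at -0.33 (adjusted p = 0.586 and 0.54), with overlapping groups and control library 1 high. Of 17 antigen presentation genes 15 were higher with a median of 0.07, which was 0.04 without T2D empty vector library 1, 0.11 without library 2 and 0.10 without control library 1, among them B2m, the light chain of class I molecules, at 0.14 (adjusted p = 0.374).

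Genes of the extracellular matrix were split between the diabetic libraries. Of 42, 33 were higher with a median of 0.09, and 7 had groups apart in this direction, in which 19.9% of all genes were apart. Leaving out T2D empty vector library 1 brought the median to 0.21, and leaving out library 2 to -0.05. Fibroblast markers did the same, with a median of 0.11 over 12 genes, 0.22 without library 1, -0.04 without library 2 and 0.18 without control library 1, and a summed level of 15.77 and 15.67 in control and 15.71 and 15.97 in T2D empty vector. The lists share 4 genes, and the part of the fibroblast markers was not tested. Col3a1, a second fibrillar collagen chain, stood at 12.71 and 12.65 against 12.55 and 12.91. Agrn, a basement membrane proteoglycan, differed in both libraries, at 9.34 and 9.33 against 9.68 and 9.57 (0.29, SE 0.05, adjusted p = 0.0789). Agrn was called in the authors' deposited table.

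The remaining called genes belong to no list with more than their own call. Lrrc4b (ENSMUSG00000047085.14, plus strand, chr7:44442485-44463351), which encodes a leucine-rich adhesion protein known from synapses, had the smallest p of all genes. It fell by 0.64 (SE 0.04, adjusted p = 0.00169), from 8.14 and 8.09 to 7.44 and 7.52, and stood at 7.48 and 7.76 in T2D dnMCUb. Epha4, an ephrin receptor, fell by 0.35 (adjusted p = 0.0421), Cpxm2, a secreted relative of carboxypeptidases, by 0.32 (adjusted p = 0.0286), Ripor2, a regulator of cell polarity, by 0.30 (adjusted p = 0.0419) and Krt222, an atypical keratin, by 0.27 (adjusted p = 0.0444). Scgb1c1, a secretoglobin, and Cngb3, a subunit of a cyclic nucleotide gated channel of photoreceptors, fell by 0.29 (adjusted p = 0.0163) and 0.20 (adjusted p = 0.0444). Gm12295, a long intergenic RNA on chromosome 11 (chr11:65277654-65287833, minus strand), rose by 0.21 (adjusted p = 0.0444), from 6.24 and 6.26 to 6.45 and 6.47. Lrrc4b kept its call in all fits with a library left out. Without control library 1 the adjusted p was 0.233, 0.171, 0.226, 0.245, 0.171 and 0.262 for Epha4, Cpxm2, Ripor2, Krt222, Cngb3 and Gm12295, and without control library 2 it was 0.0691, 0.0681, 0.0596, 0.19, 0.241 and 0.191 in the same order and 0.0555 for Scgb1c1.

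**Figure D4:**
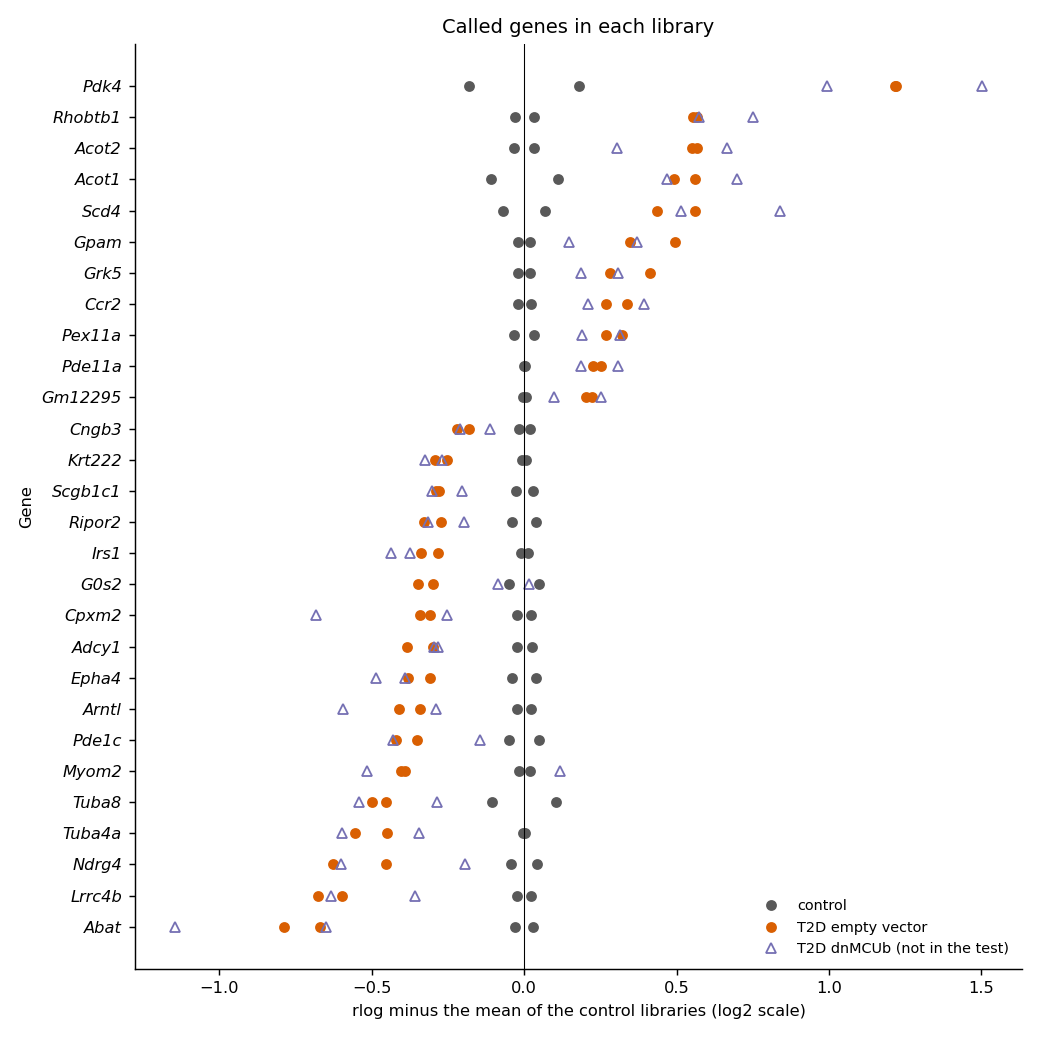
Each row is 1 of 28 called genes and each point 1 library's rlog minus the mean of the control libraries (log2 scale), in grey for control, orange for T2D empty vector and open triangles for T2D dnMCUb, which was not in the test. The orange points of a gene all lie on 1 side of its grey points, and the grey points are spread most for Pdk4.

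Genes that make energy and protein lay slightly lower as groups, with no call. Of 50 nuclear genes of the respiratory chain, 45 were lower with a median of -0.05, 5 had an unadjusted p under 0.05 (5.18% of all genes in this direction) and 20 had groups apart (22.5% of all genes). Ndufb7, a subunit of complex I, was at -0.13 (adjusted p = 0.407). That median was -0.10 if T2D empty vector library 1 or control library 2 was left out, -0.02 if T2D empty vector library 2 was and -0.03 if control library 1 was. The mitochondrially encoded genes did not lie to 1 side: of 7 tested, 4 were higher and 3 lower, with mt-Co1, a subunit of cytochrome oxidase, at -0.04 and mt-Nd1, a subunit of complex I, at -0.07. Of 36 cytosolic ribosomal protein genes, 33 were lower with a median of -0.06, 6 had an unadjusted p under 0.05 and 21 had groups apart, all in the lower direction (5.18% and 22.5% of all genes). Rpl35 was at 8.34 and 8.32 against 8.11 and 8.18 (-0.18, adjusted p = 0.219).

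The genes of the mitochondrial calcium uniporter, which the vector of the other diabetic group targets, lay close to control on the rlog scale. Of 16 genes of calcium entry and exit, 8 were higher and 8 lower with a median of -0.0017 (-0.03 to 0.02 with 1 library left out). None was called by limma, and 1 had an unadjusted p under 0.05, which 10.3% of all genes had. Mcu, the pore subunit, stood at 7.0418 and 7.1025 in control and at 7.0359 and 6.9824 in T2D empty vector, so its groups were narrowly apart. Mcub, its inhibitory relative, was at 5.42 and 5.47 against 5.48 and 5.46, near the minimum of 5, with overlapping groups. Micu2, a gatekeeper subunit, differed by -0.01. Standard errors were 0.04 for Mcu, 0.03 for Mcub and 0.05 for Micu2. They are for rlog values, which are pulled together, with differences of -0.06 for Mcu and 0.02 for Mcub. The log2 folds in the authors' deposited table were -0.26 for Mcu and 0.20 for Mcub.

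Among the other cell types, list medians moved with single libraries. All 6 tested red cell genes were lower with a median of -0.38, and the median was -0.02 without control library 1 and -0.77 without control library 2. Their summed level was 12.66 in control library 1 and 11.72 to 11.75 in the other 3. The atrial list had a median of -0.22, which became 0.06 without control library 1, -0.48 without control library 2 and -0.45 without T2D empty vector library 2. Endothelial genes had a median of 0.05 and smooth muscle and pericyte genes one of -0.04, with no call by limma in either. Of the endothelial genes 2 had an unadjusted p under 0.05, in the higher direction (5.14% of all genes). Of the smooth muscle and pericyte genes 1 had one, in the lower direction (5.18% of all genes). The endothelial median was -0.02 without control library 1, 0.10 without control library 2, 0.01 without T2D empty vector library 1 and 0.02 without library 2. The smooth muscle and pericyte median was -0.02, 0.0023, 0.09 and -0.08 in the same order, and 0.0099 with quantile normalization.

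**Figure D5:**
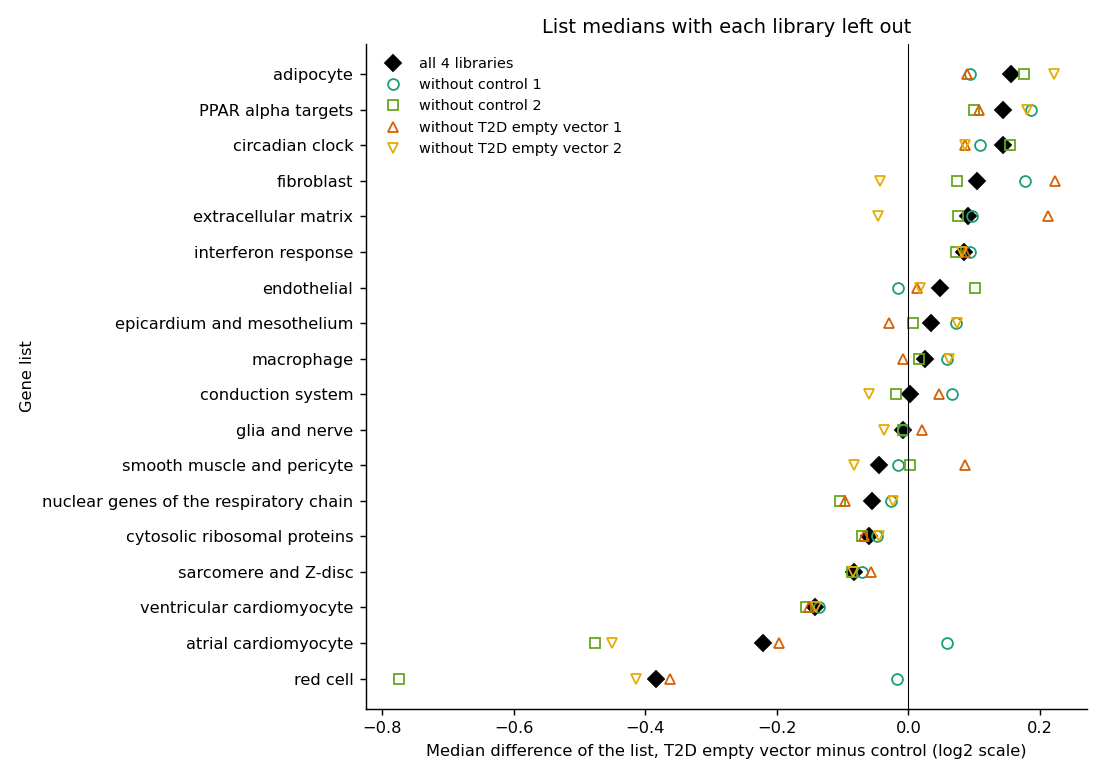
Each row is a gene list, with the median difference over its members (T2D empty vector minus control, log2 scale) from all 4 libraries as a black diamond and with 1 library left out as open symbols. The PPAR alpha, clock, interferon and ventricular lists keep their side of 0 in all 5 fits, while several others cross it, among them matrix and fibroblast lists without T2D empty vector library 2, atrial and endothelial lists without control library 1 and macrophage and smooth muscle lists without T2D empty vector library 1.

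The 30 called genes lay on 15 chromosomes, and 29 of them were protein coding, as were 11729 of the genes tested. Their mean rlog ran from 5.68 to 14.46. Of the genes that differed by at least 0.5, 8 were higher and 10 lower, and 9 of these 18 were called.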

How the data were processed

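Per the labels' protocols, a stranded kit for total RNA was used once ribosomal RNA had been depleted. Tools named in the submitters' processing notes are DESeq2, STAR 2.5.2a and bcl2fastq 2.20.0.422, and builds are GRCm38, mm10 and hg38, all without roles. How reads were counted, with which strand setting and with what rule for shared reads, is not given in the sources used here. The authors deposited rlog values on the log2 scale for 6 libraries, and for each comparison a log2 fold with its p-value before and after adjustment. All 6 library columns carried a sample label, and 0 were unused. Coordinates of 53565 transcripts matched GENCODE M21 (GRCm38), and 26 symbols turned into dates were restored.

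The 4 libraries were fitted with limma 3.58.1 in R 4.3.3, with 2 residual and 6.5 prior degrees of freedom, a mean-variance trend and Benjamini-Hochberg adjustment, for 13094 genes, those whose mean rlog over the 6 libraries reached 5. With 2 libraries against 2 the smallest exact permutation p is 0.333, and that test was left out. Errors are limma's standard errors. The procedure was tested on simulated data. The 31 pathway and 16 cell type lists were described by counts and medians, without a test. Members and lists were chosen with earlier results of these data known.

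Named genes are every called gene, up to 4 members of each list with the smallest p, a set of fixed genes of fuel use, contraction, clock and calcium, up to 10 genes per direction called only in the authors' deposited table, and the 5 genes just outside the threshold. Of the called genes, 2 are not reported here. Promoter windows and motif matches come from RefSeq (GRCm38.p6). Alternatives changed the libraries in the fit, the level filter, the scaling, the variance model and the replicate block, and left out each library in turn.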

Additional observations from a re-analysis of the deposited data

How the results depend on the processing

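The 30 calls (13 higher, 17 lower) became 0 (0 and 0) with all 6 libraries in 1 limma fit, where 803 genes had an unadjusted p under 0.05, and 0 (0 and 0) with no filter on low values, where 2219 of 31574 genes had one. They became 16 (8 and 8) with quantile normalization, 12 (5 and 7) without a mean-variance trend and 57 (30 and 27) with robust empirical Bayes, and were 71 (35 and 36) in the authors' deposited table over the same genes. With 1 library left out, and the lone library of its group assumed to vary like the other group, they ranged from 17 to 249 in all, 8 to 178 higher and 7 to 71 lower. A minimum of 7, a minimum over the 4 libraries and centred libraries gave 25 to 30. All called genes kept their direction in every fit, with differences of 0.777 to 1.223 times those reported. Where the values themselves were unchanged, groups that did not overlap left no other outcome. With the replicate number as a block, 8 genes were called (4 higher, 4 lower), all among the 30. The numbers were not shown to pair the libraries: the differences between replicates 1 and 2 correlated at -0.088 between the groups across genes. The cause of these shifts in the counts was not tested. How far the unknown depth limits the calls was not tested, and the spread of 2 libraries a group limits every test. No called gene reversed, but differences near 0 or set by 1 library did. With 1 library left out they ranged from -0.0064 to 0.19 for Angptl4, -0.032 to 0.031 for Atp2a2, -0.086 to 0.51 for Col1a1, -0.13 to 0.23 for Col3a1, -1.40 to 0.16 for Gm10800, -0.059 to 0.52 for Irs2, -0.0036 to 0.045 for Mcub, -0.074 to 0.057 for Micu2, -0.60 to 0.19 for Myh7, -1.57 to 0.37 for Myl4, -1.74 to 0.38 for Myl7, -0.047 to 0.028 for Ndrg2, -0.034 to 0.051 for Ndrg3, -0.018 to 0.23 for Nr1d1, -0.019 to 0.039 for Ppargc1a and -0.12 to 0.031 for mt-Co1. With centred libraries Atp2a2 was at 0.0021. With quantile normalization Pln was at 0.068 and Atp2a2 and Myh6 at 0.00.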

Other observations

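Stress and growth genes outside the lists above held no call and lay on both sides. In the unfolded protein and integrated stress response, 15 of 26 genes were higher and 11 lower (median 0.02), and 5 and 4 had an unadjusted p under 0.05 (5.14% and 5.18% of all genes). Without control library 1 the median was -0.0003, without control library 2 it was 0.03 and without T2D empty vector library 2 it was 0.0078. Manf, a secreted chaperone partner, stood at 9.01 and 9.10 in control and at 8.71 and 8.80 in T2D empty vector (-0.30, limma adjusted p = 0.0789). Hspa5, the chaperone BiP, stood at 13.66 and 13.65 against 13.40 and 13.46 (-0.23, adjusted p = 0.186). Both were called in the authors' deposited table. Mthfd2, a mitochondrial folate enzyme, stood at 5.92 and 5.87 against 6.03 and 6.07 (0.15, adjusted p = 0.168), and Chac1, which degrades glutathione, was at 0.11 (adjusted p = 0.308). The groups were apart in all 4 genes. Of 22 heat shock genes 17 were lower (median -0.07, but -0.03 without control library 2 and -0.04 without T2D empty vector library 2). Of the 17, 3 had an unadjusted p under 0.05 (5.18% of all genes in this direction). Dnaja1, a cochaperone of HSP70, was at -0.12 (adjusted p = 0.397).

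Of 21 immediate early genes 20 were higher (median 0.09), 6 of them with an unadjusted p under 0.05 (5.14% of all genes in this direction). Jun, a subunit of AP-1, was at 10.08 and 9.97 against 10.22 and 10.18 (adjusted p = 0.321). The median of the list was 0.05 without T2D empty vector library 1, where 17 were higher and 4 lower, 0.16 without library 2 and 0.06 without control library 1. Of 32 genes of oxidative stress defence 22 were higher (median 0.05), 7 of them with an unadjusted p under 0.05. Of 24 genes of atrophy and autophagy 15 were higher (median 0.03), 3 of them with such a p. In this direction 5.14% of all genes had one. Bnip3, a mitophagy receptor, was at 0.21 (adjusted p = 0.391). Without T2D empty vector library 1, T2D empty vector library 2 and control library 2 in turn, the median was 0.0071, 0.07 and 0.02 for oxidative stress defence and 0.01, 0.06 and 0.0077 for atrophy and autophagy. Of 18 cell cycle genes 13 were higher and 5 lower (median 0.02), and 3 and 1 had an unadjusted p under 0.05 (5.14% and 5.18% of all genes). Mki67, a marker of dividing cells, stood at 7.81 and 7.80 against 7.99 and 7.98 (0.18, adjusted p = 0.183). Top2a, a topoisomerase of dividing cells, stood at 7.08 and 7.07 against 7.19 and 7.21 (0.12, adjusted p = 0.327).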
